A study of Mus musculus with 8 samples.

Results

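The 37 genes described here are markers of the blood vessel wall, 27 of endothelial cells and 10 of mural cells, the pericytes and smooth muscle cells that wrap the endothelial tube. They were taken by gene symbol from a list of textbook markers of these cells, and all 37 were found among the 16382 genes measured. The list was chosen with earlier results of these data known. RNA was sequenced from whole soleus, a slow muscle of the hind limb, of 7-month-old female mice. The libraries comprised 4 of homozygous Megf10 knockout mice (Megf10 -/-, KO) and 4 of wild-type mice (WT). The KO allele, Megf10tm1b(KOMP)Jr, lacks the fourth exon in every cell of the animal, so vessel cells carry the deletion as muscle cells do. The labels name no treatment, and the strain background, the housing site of these animals and whether the WT mice were littermates are not given in the sources used here. Values are normalized counts, gene counts that the authors scaled for library size and transcript length.

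Capillary endothelial cells supply muscle fibers with oxygen and fatty acids, and they hold to one another through junction proteins such as VE-cadherin. Vascular endothelial growth factors and angiopoietins, released by neighbouring cells, act on receptor tyrosine kinases of the endothelium. Pericytes share a basement membrane with capillary endothelial cells, and smooth muscle cells ring the larger vessels and set their bore.

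Megf10 itself was at 1.55, 7.76, 1.12 and 11.1 normalized counts in KO replicates 1 to 4, against 63.0, 57.1, 69.7 and 70.0 in WT replicates 1 to 4, and all 8 libraries matched their labels. Skeletal muscle genes were high in every library, and their 5 markers summed to 2156278 to 2380599 in KO and 2432261 to 2695588 in WT. The depth recovered from the spacing of low values was 26.0 to 26.4 M (mega) reads in KO replicates 2 to 4, 37.8 M in KO replicate 1 and 36.7 to 41.4 M in the WT libraries, so depth ran largely with genotype. Each of the 37 genes was at 31.1 normalized counts or more in all 8 libraries, so the vessel markers were present throughout.

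Upstream sequences were taken from RefSeq (build GRCm38.p6, while the authors worked on GRCm39) to place the genes that turned out lower in KO on the genome. They covered 20 of the 37 genes and 4 of the 5 that fell. The 250 bases before the transcription start of these 4 genes are shown on the coding strand. The core of the binding motif of ETS factors is in capitals, as GGAA or its reverse complement TTCC. ETS factors are the family of the endothelial regulators Erg and Fli1. Tie1 lies at chr4:118489850-118490099 on the minus strand, Rgs5 at chr1:169655251-169655500 on the plus strand, Abcc9 at chr6:142702275-142702524 on the minus strand and Vtn at chr11:78498870-78499119 on the plus strand, each interval being the window printed.
Tie1: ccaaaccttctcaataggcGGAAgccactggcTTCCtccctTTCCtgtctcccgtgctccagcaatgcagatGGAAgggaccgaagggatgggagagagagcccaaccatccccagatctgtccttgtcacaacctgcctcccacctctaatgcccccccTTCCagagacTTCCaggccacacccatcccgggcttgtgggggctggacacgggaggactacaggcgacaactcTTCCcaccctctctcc
Rgs5: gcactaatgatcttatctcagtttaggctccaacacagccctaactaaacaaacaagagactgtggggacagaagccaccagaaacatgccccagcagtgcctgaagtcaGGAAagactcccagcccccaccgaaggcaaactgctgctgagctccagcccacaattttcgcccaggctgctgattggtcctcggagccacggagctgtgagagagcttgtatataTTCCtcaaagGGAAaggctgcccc
Abcc9: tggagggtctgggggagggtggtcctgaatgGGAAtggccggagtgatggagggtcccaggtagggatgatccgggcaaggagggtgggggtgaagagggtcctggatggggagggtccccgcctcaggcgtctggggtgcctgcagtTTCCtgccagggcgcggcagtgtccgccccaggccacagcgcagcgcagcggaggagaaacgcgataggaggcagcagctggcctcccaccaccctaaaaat
Vtn: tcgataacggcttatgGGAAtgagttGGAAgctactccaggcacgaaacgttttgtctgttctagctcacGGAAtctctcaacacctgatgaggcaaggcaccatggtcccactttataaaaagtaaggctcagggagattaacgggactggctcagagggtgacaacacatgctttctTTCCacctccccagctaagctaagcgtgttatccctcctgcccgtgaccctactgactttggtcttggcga
The Tie1 window held 7 cores, and 3.82% of all 32851 RefSeq windows of this length held at least as many. Vtn held 4, Rgs5 3 and Abcc9 2, numbers reached by 33.4%, 54.7% and 76.8% of all windows. The median was 3 cores over the 26 windows of the matched genes and 3 over all windows, and 93.4% of all windows held at least 1. These counts describe letters in a window and were not tied to any measured binding.

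Most vessel genes had lower mean levels in KO soleus, by modest amounts, and a few of them passed the test. Of the 37, 5 fell, 0 rose and 32 did not pass the test (limma on log2(normalized count + 1), adjusted p below 0.05 by Benjamini-Hochberg over all genes). The 5 are 13.5% of the list. Over all genes 8.95% passed, with 3.79% lower and 5.16% higher in KO. At an unadjusted p below 0.05, 14 were lower and 0 higher, where 25.5% of all genes passed and 12.2% were lower. The log2 fold change was below 0 in 30 of 37, against 51.0% of all genes, and its median was -0.20 against -0.01 over all genes. In 7 of the 37 every KO library lay below every WT library, a share of 18.9% where 8.54% of all genes did so, and in 0 did every KO library lie above, where 8.63% of all genes did so. In whole muscle, fewer vessel cells and less of each RNA per cell cannot be told apart. The p-values weigh the genotype difference against the spread between the 4 libraries of each genotype, which limma moderated with the variances of other genes.

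**Figure D1:**
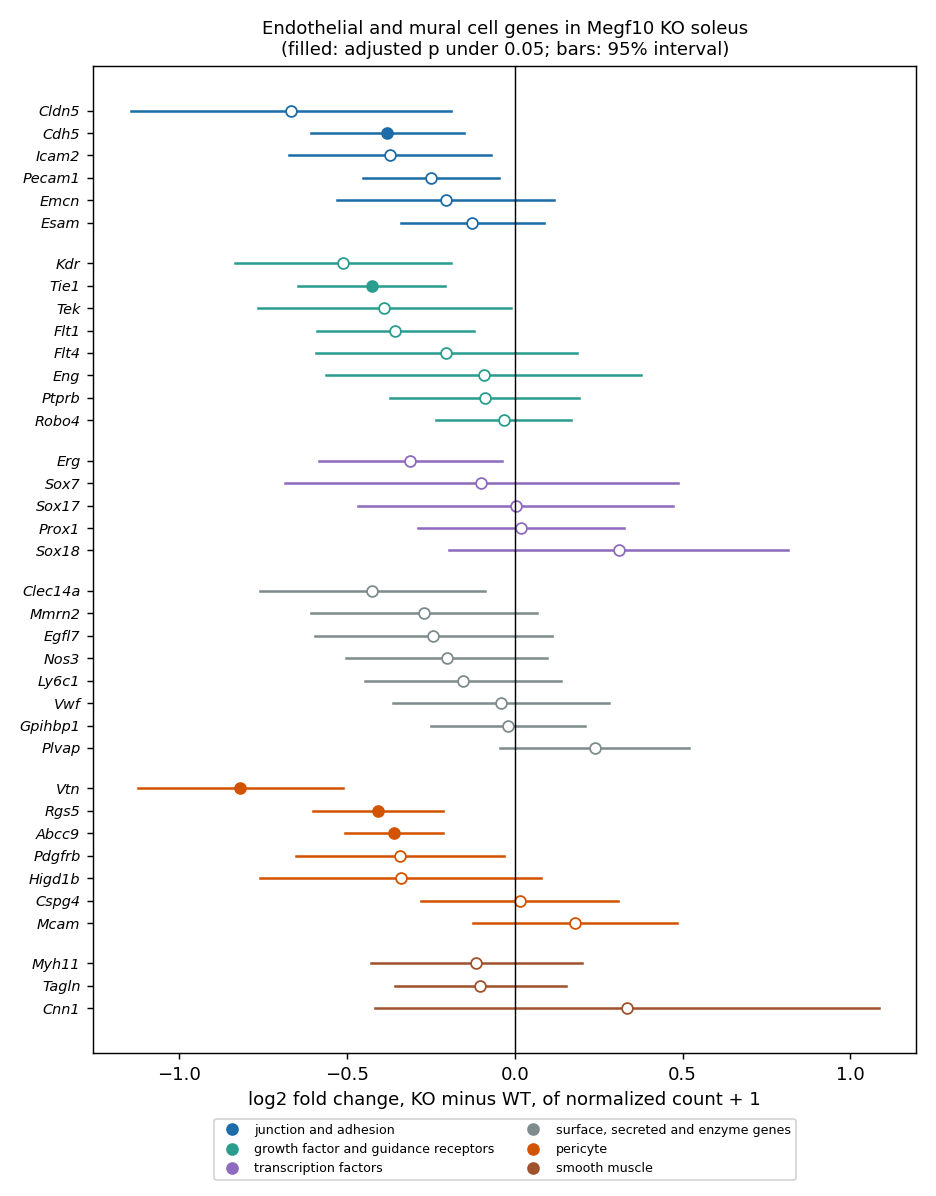
Log2 fold change of each of the 37 genes in KO over WT soleus, grouped by role, with 95% confidence intervals from limma (4 libraries per genotype). Filled points mark the 5 genes that passed an adjusted p of 0.05, all left of 0, from Vtn at -0.82 to Abcc9 at -0.36.

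Of the 7 pericyte genes 3 fell, Vtn, Abcc9 and Rgs5, and 4 did not pass the test, with a median log2 fold change of -0.34. Those 3 are 42.9% of a list of only 7, where 3.79% of all genes fell. Vtn encodes vitronectin, a secreted adhesion protein that marks pericytes among the cells of the vessel wall. It was at 444, 351, 311 and 479 normalized counts in the KO libraries, against 665, 637, 733 and 723 in the WT libraries. Every KO library lay well below every WT library. The KO mean was 396 ± 78.6 and the WT mean 689 ± 45.9 (SD, n = 4 each), a ratio of 0.568 and a log2 fold change of -0.82 (SE 0.138, limma adjusted p = 0.00611).

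Abcc9 encodes SUR2, the regulatory subunit of ATP-sensitive potassium channels, which is abundant in pericytes and smooth muscle and also made by muscle fibers. It was at 4592, 5356, 4641 and 5183 normalized counts in KO, against 6489, 6282, 6034 and 6529 in WT. The groups did not overlap, and the spread within each was small. The KO mean of 4943 ± 384 stood against a WT mean of 6333 ± 227 (SD, n = 4 each), a log2 fold change of -0.36 (SE 0.0663, limma adjusted p = 0.00932). Kcnj8, the pore subunit of the vascular channel and a pericyte gene outside the 37, was at 456, 441, 349 and 581 in KO, against 724, 743, 869 and 802 in WT, with no overlap (log2 fold change -0.80, SE 0.142, limma adjusted p = 0.00760). Kcnj11, the pore subunit of the muscle fiber channel, was chosen after its values were seen. It was at 5833, 5466, 5068 and 5314 in KO, against 5611, 6507, 5773 and 5383 in WT, which overlap (log2 fold change -0.10, 95% interval -0.26 to 0.06). The difference between these fold changes was not tested.

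Rgs5, a regulator of G protein signaling enriched in pericytes, was at 8040.5, 9244, 7773 and 10109 normalized counts in KO, against 12677, 10886, 11549.9 and 11326 in WT. All 4 KO libraries lay below the lowest WT library, KO replicate 4 most narrowly. The KO mean was 8792 ± 1087 and the WT mean 11609.8 ± 763 (SD, n = 4 each), a log2 fold change of -0.41 (SE 0.0879, limma adjusted p = 0.0184). The call held in 7 of the 8 fits that leave out a library, and the limma adjusted p was 0.0586 without KO replicate 3. Over all 19 alternative fits Rgs5 passed in 14.

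Pdgfrb, the receptor through which endothelial PDGF-B recruits pericytes, was at 976, 874, 849 and 1149 in KO and 1038, 1066, 1243 and 1559 in WT. The groups overlapped, and the log2 fold change of -0.34 (95% interval -0.65 to -0.03) had a limma adjusted p of 0.158. Higd1b, a small mitochondrial protein restricted largely to pericytes, was at -0.34 on the log2 scale (-0.76 to 0.08). Cspg4, the NG2 proteoglycan, was at 0.01 (-0.28 to 0.31), and Mcam, an adhesion protein of both mural and endothelial cells, was at 0.18 (-0.12 to 0.48). The pericyte genes thus did not all lie to one side.

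The 3 contractile genes of smooth muscle gave no call. Myh11, the smooth muscle myosin heavy chain, was at 1287, 1291, 905 and 1462 in KO and 1418, 1155, 1236 and 1493 in WT. Its log2 fold change was -0.11 (95% interval -0.43 to 0.20). Tagln, an actin-binding protein, was at -0.10 (-0.36 to 0.15). Cnn1, calponin, was the lowest of the 37 in level, at 39.4 to 108 in KO and 31.1 to 58.1 in WT, and its interval ran from -0.42 to 1.09. These intervals leave room for a fall as large as that of Rgs5 only for Cnn1 and Myh11.

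**Figure D2:**
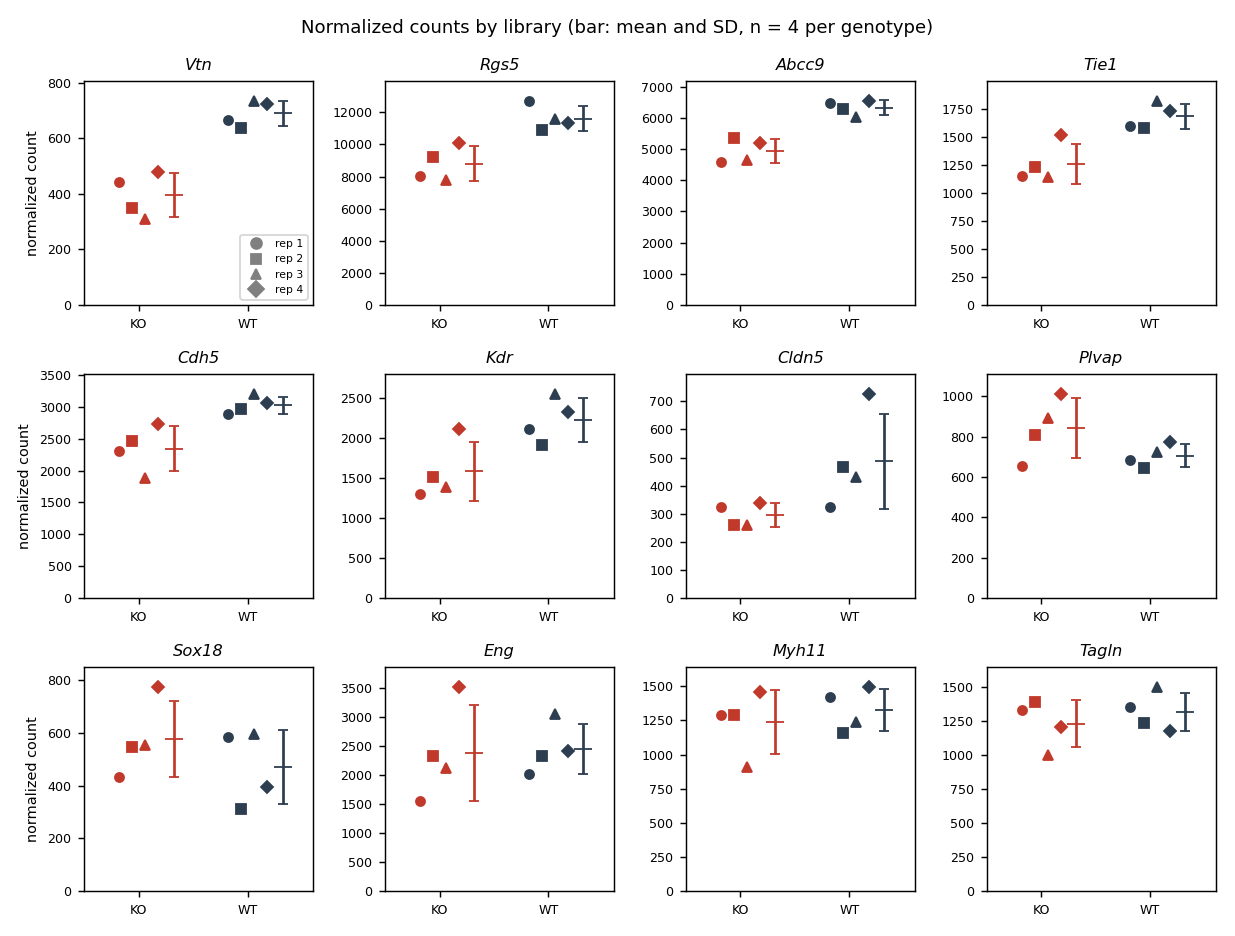
Normalized counts of 12 of the genes in each library, KO left and WT right, with a marker for each replicate number and the mean and SD beside them (n = 4 per genotype, axes from 0). Vtn, Rgs5, Abcc9, Tie1 and Cdh5 show no overlap between genotypes, and the other 7 overlap. In those 7, KO replicate 4 is the highest KO library for all but Tagln.

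Among the 27 endothelial genes 2 fell, Tie1 and Cdh5, and 25 did not pass the test. That is 7.41% of the list, while 3.79% of all genes fell. The median log2 fold change was -0.20, with 23 of 27 below 0, where 51.0% of all genes were. At an unadjusted p below 0.05 by limma 10 were lower, where 12.2% of all genes were. In 4, or 14.8%, the groups did not overlap, all lower in KO, where 8.54% of all genes did so.

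The growth factor and guidance receptors had a median of -0.28, and all 8 were below 0. Tie1, an orphan receptor that modulates angiopoietin signaling, was at 1151, 1231, 1139.5 and 1515 normalized counts in KO, against 1598, 1581, 1817 and 1734 in WT. KO replicate 4 came close to the WT libraries and the other KO libraries lay clear of them. The KO mean of 1259 ± 175 stood against a WT mean of 1683 ± 113 (SD, n = 4 each), a log2 fold change of -0.43 (SE 0.0990, limma adjusted p = 0.0250). The call was lost on leaving out KO replicate 1, 2 or 3 or WT replicate 3 or 4, with adjusted p up to 0.0773 over the 8 fits that leave out a library. Tek, the angiopoietin receptor Tie2, was at 617, 828, 679 and 939.6 in KO and 722, 1030.2, 1194 and 1079 in WT. These overlapped, at a log2 fold change of -0.39 (95% interval -0.77 to -0.01, limma adjusted p = 0.182).

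Of the VEGF receptors, Kdr and Flt1 lay just outside the threshold and Flt4 did not come near it. Kdr, the principal signaling receptor for VEGF-A, was at 1303, 1509, 1391 and 2116 in KO and 2113, 1914, 2543 and 2323 in WT. KO replicate 4 fell among the WT libraries and the other KO libraries lay below them. The log2 fold change was -0.51 (95% interval -0.83 to -0.19, limma adjusted p = 0.0536), and over the 8 fits that leave out a library the adjusted p was 0.00999 without KO replicate 4 and missed the threshold in the other 7, at up to 0.140. Flt1, a high-affinity VEGF receptor with weak kinase activity, was at 2065, 2437, 2125 and 2533 in KO and 3406, 2588, 2623 and 3138 in WT. There was no overlap, yet the limma adjusted p was 0.0617 at a log2 fold change of -0.36. Flt4, the VEGF-C receptor, was at -0.20 (-0.59 to 0.19, limma adjusted p = 0.514).

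The remaining receptors lay nearer 0. Eng, a TGF-beta co-receptor, ranged from 1551 to 3515 in KO and from 2023 to 3053 in WT, with KO replicate 4 the highest of all 8 libraries. Its log2 fold change was -0.09 (95% interval -0.56 to 0.38). Ptprb, the phosphatase VE-PTP that dephosphorylates Tie2, was at -0.09 (-0.37 to 0.19). Robo4, a guidance receptor that stabilizes vessels, was at -0.03 (-0.23 to 0.17), the narrowest interval of the 8 receptors.

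All 6 junction and adhesion genes were below 0, with a median of -0.31. Cdh5, VE-cadherin, was at 2311, 2461, 1875 and 2729 normalized counts in KO, against 2880.4, 2969.9, 3196 and 3052 in WT. The KO libraries were all lower and more scattered than the WT libraries. The KO mean was 2344 ± 357 and the WT mean 3024 ± 134 (SD, n = 4 each), a log2 fold change of -0.38 (SE 0.103, limma adjusted p = 0.0455). This call passed narrowly. It held on leaving out KO replicate 4 (adjusted p = 0.0267) and was lost on leaving out any of the other 7 libraries, with adjusted p up to 0.109.

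Cldn5, the tight junction protein claudin-5, had the second largest difference of the 37 in size. It was at 324, 259, 258 and 339.6 in KO and 323, 466, 430.2 and 725 in WT. The WT libraries were widely scattered, and WT replicate 1 lay within the KO range. The log2 fold change was -0.67 (95% interval -1.14 to -0.19, limma adjusted p = 0.0804), and over the 8 fits that leave out a library the adjusted p was 0.0310 without WT replicate 1 and missed the threshold in the other 7, at up to 0.185. Icam2, an adhesion ligand for leukocytes, was at 179, 197, 164 and 208 in KO and 215, 264, 270.2 and 221 in WT, without overlap, at -0.37 (limma adjusted p = 0.116). Pecam1, the adhesion protein CD31, was at -0.25 (95% interval -0.45 to -0.05, limma adjusted p = 0.118). Emcn, the sialoglycoprotein endomucin, was at -0.21 and Esam, a junctional adhesion protein, at -0.13, and the intervals of both included 0.

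None of the 5 transcription factors passed limma's test (1 lower at an unadjusted p below 0.05), with a median of 0.00 and 2 of 5 below 0. Erg, an ETS factor that maintains endothelial identity, was at 383, 429, 308 and 409.6 in KO and 509.7, 469, 419 and 491 in WT. Only KO replicate 2 overlapped the WT range, and the log2 fold change was -0.31 (95% interval -0.58 to -0.04, limma adjusted p = 0.142). The SOXF factors Sox7, Sox17 and Sox18, which act in arterial and lymphatic specification, were at -0.10 (95% interval -0.68 to 0.49), 0.00 (-0.47 to 0.47) and 0.31. Sox18 was at 431, 546, 555 and 773 in KO and 583, 311, 597 and 394 in WT, and the groups overlapped (95% interval -0.20 to 0.81). Prox1 specifies lymphatic endothelium and is also made by slow muscle fibers, and it was at 0.02 (-0.29 to 0.33).

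None of the 8 surface, secreted and enzyme genes passed the test, with a median of -0.18 and 1 lower at an unadjusted p below 0.05. That gene was Clec14a, an endothelial lectin-like receptor, at 183, 204, 181 and 238 in KO and 232, 238, 329 and 287 in WT (log2 fold change -0.42, limma adjusted p = 0.108). Mmrn2, a matrix protein that binds Clec14a, was at -0.27, Egfl7, a secreted vessel matrix factor, at -0.24, and Nos3, endothelial nitric oxide synthase, at -0.20. Gpihbp1, which carries lipoprotein lipase across the capillary wall, was at -0.02 (95% interval -0.25 to 0.21) and Vwf, von Willebrand factor, at -0.04 (-0.36 to 0.28). Ly6c1, a surface protein of capillary endothelium, was at -0.15, and its reads may be shared with the near-identical Ly6c2. Plvap, the diaphragm protein of fenestrae and caveolae, was the exception in direction. It was at 656, 806, 893 and 1009.7 in KO and 683, 642, 725 and 773 in WT, with 3 of 4 KO libraries above every WT library (log2 fold change 0.24, 95% interval -0.04 to 0.52, limma adjusted p = 0.274).

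The libraries of each genotype were not alike in vessel genes. Among KO libraries, replicate 1 was the lowest for 15 of the 27 endothelial genes and replicate 4 the highest for 20. Averaged over the 27 genes after centring each gene on its mean of 8 libraries, the log2 level was -0.28, -0.07, -0.18 and 0.14 in KO replicates 1 to 4, against 0.07, -0.02, 0.20 and 0.15 in WT replicates 1 to 4. KO replicate 4 therefore overlapped the WT libraries and the other 3 KO libraries lay below all of them. The same average over the 7 pericyte genes was -0.11, -0.21, -0.27 and 0.00 in KO, against 0.14, 0.08, 0.09 and 0.29 in WT, without overlap. Over the 3 smooth muscle genes it was 0.36, -0.09, -0.36 and 0.17 in KO, against 0.12, -0.03, -0.19 and 0.01 in WT, and the KO libraries spanned the WT range on both sides. Genes of 1 library share its source and are not replicates, so no test was made on these averages.

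**Figure D3:**
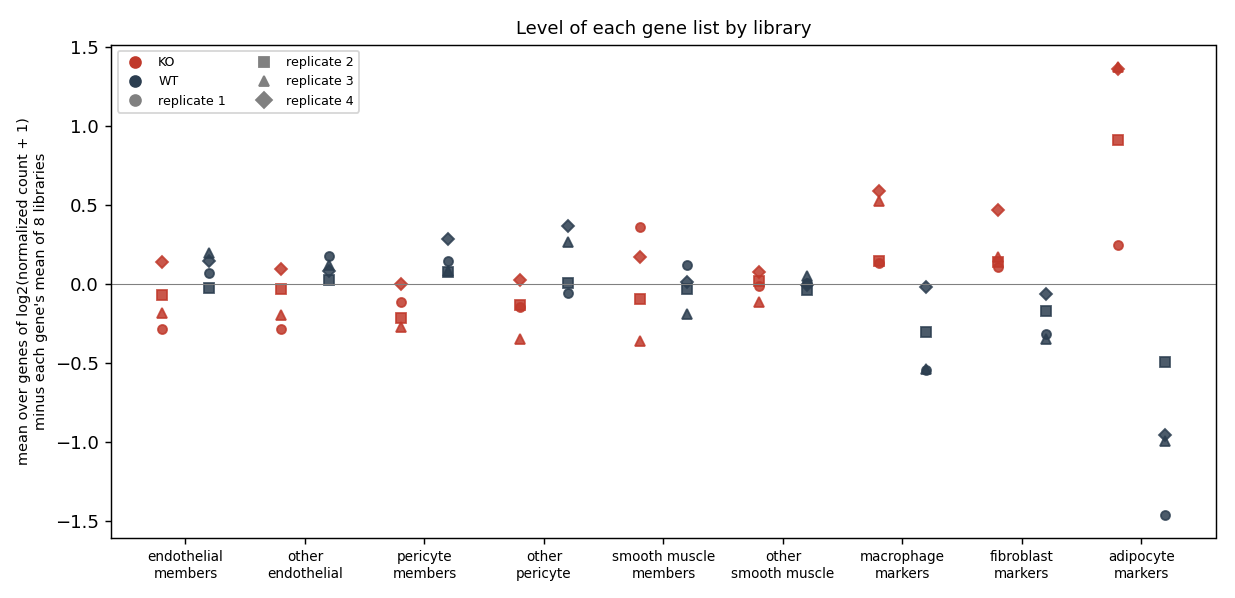
Average centred log2 level of the vessel gene groups described here (members), of other genes of the same cell types and of macrophage, fibroblast and adipocyte markers in each library, KO left and WT right in each pair. The 7 pericyte members lie from -0.27 to 0.00 in KO and from 0.08 to 0.29 in WT, without overlap. The other pericyte genes overlap, with KO replicate 4 at 0.03 above WT replicates 1 and 2 at -0.05 and 0.01. The endothelial members overlap through KO replicate 4 at 0.14, and the adipocyte markers lie higher in KO.

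Other genes of the vessel wall, from lists outside the 37, gave the following counts, where 3.79% of all genes fell and 5.16% rose. Of 23 other endothelial genes, 2 fell, 0 rose and the median was -0.24. They were Cd93, a surface receptor that binds Mmrn2, at a log2 fold change of -0.43 (limma adjusted p = 0.0174), and the ETS factor Fli1, at -0.56 (limma adjusted p = 0.0210). Cd93 passed in all 8 fits that leave out a library, and Fli1 in 5 of 8, missing the threshold at an adjusted p of at most 0.0581 when KO replicate 3, WT replicate 1 or WT replicate 4 was removed. Of 11 other pericyte genes 2 fell, Kcnj8 and Gucy1b1, the beta subunit of the nitric oxide receptor guanylyl cyclase, which was at -0.64 (limma adjusted p = 0.0330). Kcnj8 passed in all 8 fits that leave out a library, and Gucy1b1 only without WT replicate 2, with adjusted p up to 0.0795 in the other 7. Their median was -0.26. None of 10 other smooth muscle genes passed limma's test (3 lower and 1 higher at an unadjusted p below 0.05), with a median of 0.04.

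By vessel type, 0 of 13 arterial and Notch pathway genes passed limma's test (5 lower and 0 higher at an unadjusted p below 0.05, median -0.24). None of 5 venous genes passed limma's test either (0 at an unadjusted p below 0.05, median -0.16). Of 6 lymphatic genes 1 rose, Lyve1, a hyaluronan receptor that macrophages also carry, at 0.74 (limma adjusted p = 0.0246). That call did not hold, at adjusted p of up to 0.0775, when WT replicate 1, WT replicate 3, KO replicate 3 or KO replicate 4 was removed. Of the 4 genes of activated endothelium measured, 0 passed limma's test, 0 had an unadjusted p below 0.05, and the median was 0.17. Of 8 genes for capillary uptake of fatty acids, 1 fell (2 lower and 1 higher at an unadjusted p below 0.05, median -0.22). This was Lpl, lipoprotein lipase, which muscle fibers and fat cells make and capillaries display, at 56432, 53543, 60440.2 and 65699.8 normalized counts in KO, against 76855, 80455, 95007 and 83025 in WT (log2 fold change -0.51, SE 0.0841, limma adjusted p = 0.00583). Every KO library lay below every WT library, while Gpihbp1, its carrier, was at -0.02. Of 10 ligands of the VEGF, angiopoietin, PDGF and apelin families, 1 fell, Vegfb, at -0.30 (limma adjusted p = 0.0416), with overlap between the genotypes. The call held only without KO replicate 4 or WT replicate 2 and was lost in the other 6 fits that leave out a library (adjusted p up to 0.112). At an unadjusted p below 0.05, 2 ligands were lower and 1 higher.

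Markers of other cells of the tissue moved with genotype beside the vessel genes. All 6 adipocyte markers rose, and their sum was 6248 to 13954 in KO and 1596 to 3711 in WT. Of 10 macrophage markers 6 rose (sum 5074 to 6675 in KO, 2918 to 4003 in WT), and of 8 fibroblast markers 3 rose (28755 to 43073 in KO, 22776 to 26989 in WT). Pax7 was the sole satellite cell marker of 5 to fall, 3 of 5 skeletal muscle markers fell, and 1 of 4 slow fiber markers rose. Of these calls Myh2 passed in all 8 fits that leave out a library and Pax7 in all but those without WT replicate 3 or 4 (adjusted p up to 0.0568). Ttn passed in 0 of the 8 (adjusted p 0.0738 to 0.111), Ckm only without WT replicate 1 (up to 0.0764) and the slow fiber gene Tnni1 only without WT replicate 2 (up to 0.0892). Among the fibroblast markers Col3a1 passed in all 8, Col1a2 was lost without KO replicate 3 or WT replicate 2 or 3 (up to 0.0727), and Col1a1 passed in 3 of 8, those that removed WT replicate 4, KO replicate 1 or KO replicate 2 (up to 0.0782). None of 5 Schwann cell markers passed limma's test, with 2 lower at an unadjusted p below 0.05. Of 7 blood cell markers 0 passed (1 higher at an unadjusted p below 0.05). Their sum was 16775, 5142, 17312 and 60117 in KO replicates 1 to 4 and 10549 to 27495 in WT. Ppbp was listed at 0 in at least 1 library. Among KO libraries, replicate 4 was highest in both blood cell RNA and the average centred log2 level of endothelial genes (0.14). KO replicate 2, lowest in blood cell RNA, was at -0.07 in endothelial genes, above KO replicates 1 and 3. Among WT libraries, replicate 2 was highest in blood cell RNA, at 27495, and lowest in endothelial genes, at -0.02. None of 4 type IIb fiber markers passed limma's test (0 at an unadjusted p below 0.05), and their sum was high in KO replicates 2 and 3, at 49263 and 86861, against 15249.8 and 6982 in KO replicates 1 and 4 and 4860.2 to 20715 in WT. The part of any of these cell types in the vessel gene differences was not tested.

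Across the 19 alternative fits none of the 5 genes changed direction. Some of these fits could hardly differ from the reported one. Dropping the filter left the same 16382 genes and 1466 calls, and median ratio scaling used factors of only 1.0028 to 1.0042. With the recovered depth as a covariate 0 of the 37 passed limma's test, where 0.0855% of all genes fell. At an unadjusted p below 0.05 by limma, 12 of the 37 passed, in either direction. In that fit 32 of 37 were below 0, and standard errors over all genes were 1.67 times as large in the median. The log2 fold change was then -0.64 for Vtn (SE 0.225, adjusted p = 0.263 by limma), against -0.82 without the covariate. It was -0.49 for Abcc9, -0.56 for Rgs5 and -0.54 for Tie1, further from 0 than without the covariate, and -0.38 for Cdh5 in both fits. Their SE were 0.101, 0.137, 0.163 and 0.176, and their limma adjusted p were 0.0831, 0.134, 0.200 and 0.406. Depth separated the genotypes in all libraries but KO replicate 1, so depth and genotype cannot be fully told apart. Without KO replicates 2 and 3, the libraries high in type IIb fiber genes, 0 of 37 passed limma's test, where 0.262% of all genes fell. At an unadjusted p below 0.05 by limma, 7 of the 37 passed, in either direction. For these unadjusted counts the share of all genes is not given here. The log2 fold changes of Vtn, Abcc9, Rgs5, Tie1 and Cdh5 without those libraries were -0.58, -0.38, -0.36, -0.35 and -0.27. With libraries rescaled to equal totals, Vtn and Abcc9 passed, where 1.96% of all genes fell, and Rgs5, Tie1 and Cdh5 had adjusted p of 0.0521, 0.0510 and 0.102. That rescaling also moved the calls over all genes to 1279 higher and 321 lower in KO, against 845 higher and 621 lower as deposited. Vtn and Abcc9 passed in every fit that left out a single library, with adjusted p of at most 0.0217 and 0.0371. Of the 37 genes, 30 lay below 0 as reported. That number was 27 with equal library totals and 28 without KO replicates 2 and 3. It was 28 to 32 with single libraries left out.

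**Figure D4:**
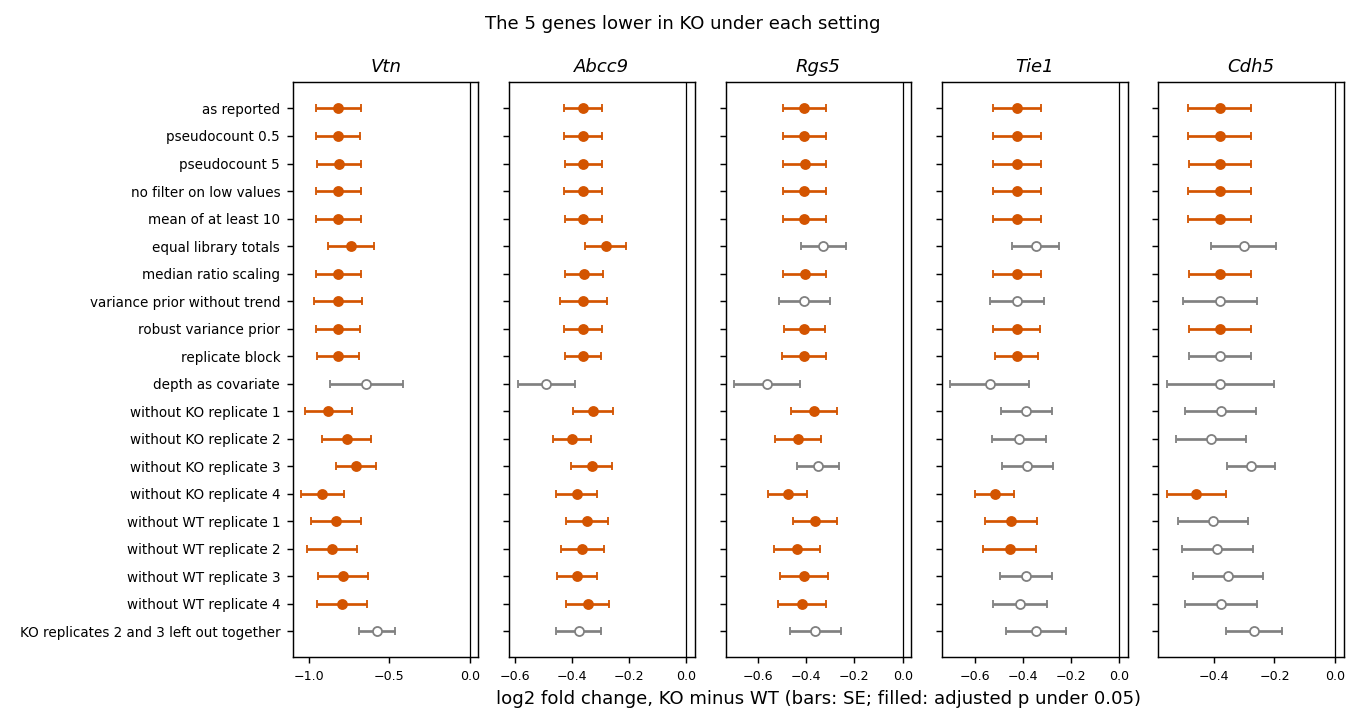
Log2 fold change in KO over WT with its SE for the 5 genes that fell, as reported and under 19 alternative fits (filled: adjusted p below 0.05). Horizontal scales differ between the panels. All points lie below 0. None of the 5 passed with the depth covariate or without KO replicates 2 and 3, and other fits hold open points too. Of the 19 fits, Vtn passed in 17, Abcc9 in 17, Rgs5 in 14, Tie1 in 10 and Cdh5 in 7.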

How the data were processed

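RNA from whole frozen soleus was made into libraries with polyA selection by a commercial provider. Per the study's methods, the authors used Trimmomatic 0.36 for trimming, FastQC 0.11.5 and MultiQC 1.0 for quality reports, Salmon 0.11.3 for transcript quantification on build GRCm39, and tximport for sums per gene. The authors filtered counts of 5 or less and then normalized with DESeq2 in R 4.1.2. The signal values deposited by the authors, 1 table per library, are these normalized gene counts. They include a length factor per gene and do not return whole reads (8.31% to 33.8% of values up to 60 were whole within 0.01 reads), so no count test was run. Library totals were 32.3 to 33.1 M (mega) in KO and 33.6 to 35.7 M in WT. A line with no gene name, 0.0112% to 0.0150% of each library, was left out. A further table with the authors' own fold changes and p-values was not used. Whether counting used strand is not given in the sources used here.

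Genes with a sum above 5 over the 8 libraries were kept. Values were analysed as log2(normalized count + 1) with limma 3.58.1 in R 4.3.3 (lmFit and eBayes with a trended variance prior, genotype as the sole term), with Benjamini-Hochberg adjustment over 16382 genes and a threshold of 0.05. Fold changes on this scale understate differences of low genes. The limma script was tested on simulated data. Tables and figures were made with Python 3.11.15, pandas 2.3.3 and matplotlib 3.10.9. All 37 vessel genes were reported. From every other list up to 3 genes of smallest adjusted p among those past the threshold could be named. Megf10, Myh4 and Pvalb were named beside them, and Kcnj11 was added outside this rule after its values were seen. The 37 genes and the other lists were chosen with earlier results of these data known. Alternatives changed the pseudocount, the filter, the scaling, the variance prior, the threshold and the libraries, or added depth or the replicate number.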

Additional observations from a re-analysis of the deposited data

Results flagged for a closer look

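Sox7 stood at 363 normalized counts in KO replicate 4, far above the 208 to 219 of the other KO libraries. Robo4 stood at 613 in KO replicate 3, below the 704 to 716 of the other KO libraries. Prox1 stood at 1405 in WT replicate 2, above the 863 to 949 of the other WT libraries. Myh4, the type IIb fiber myosin, stood at 3625 in WT replicate 4, above the 746 to 911 of the other WT libraries. The recovered depth of KO replicate 1, 37.8 M reads, stood apart from the 26.0 to 26.4 M of the other KO libraries. Each was picked out because the gap between the library and its nearest neighbour took up most of the range of the 4 libraries of its genotype. Chance alone marks about 1 in 20 groups, and 5 were marked of 130 groups screened.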

How the results depend on the processing

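The number of genes called over all genes was 1466 as reported. It was 819 without a trend in the variance prior, 58 with depth as a covariate, 164 without KO replicates 2 and 3 and 440 at a threshold of 0.01, and it lay between 662 and 1231 when single libraries were left out (662 without KO replicate 3, 907 without WT replicate 3, 959 without WT replicate 4). Endothelial genes called numbered 2 as reported. They numbered 0 with equal library totals, without a trend, with depth as a covariate, without KO replicates 2 and 3 and at a threshold of 0.01, where limma gave 7, 8, 9, 3 and 10 at an unadjusted p below 0.05, and from 0 to 3 when single libraries were left out (0 where the library was WT replicate 3 or 4 or any KO replicate but 4, and 1 where it was WT replicate 2). Mural cell genes called numbered 3 as reported, 0 with depth as a covariate or without KO replicates 2 and 3 (3 and 4 at an unadjusted p below 0.05 by limma), and 2 to 3 when single libraries were left out. The endothelial median was -0.45 with depth as a covariate. The cause of these shifts was not tested, except that leaving out libraries leaves fewer samples.

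Genes that changed sign were called in no fit. With equal library totals Vwf was at 0.037, Robo4 at 0.045 and Gpihbp1 at 0.058. With depth as a covariate Vwf was at 0.099, Sox17 at -0.55, Sox18 at -0.14, Plvap at -0.12, Tagln at 0.039, Mcam at -0.13, Myh4 at -0.58 and Kcnj11 at 0.053. Without KO replicates 2 and 3, Sox7 was at 0.071, Sox17 at -0.062, Robo4 at 0.013, Myh11 at 0.056, Myh4 at -0.87 and Pvalb at -0.43. With single libraries left out Eng ran from -0.30 to 0.092, Vwf from -0.16 to 0.090, Sox7 from -0.33 to 0.097, Sox17 from -0.12 to 0.17, Robo4 from -0.067 to 0.020, Ptprb from -0.16 to 0.017, Prox1 from -0.056 to 0.18, Gpihbp1 from -0.11 to 0.058, Cspg4 from -0.097 to 0.11 and Myh11 from -0.20 to 0.027.

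Libraries of KO and WT with the same replicate number did not deviate together (correlations from -0.07 to -0.03), so the numbers were not read as pairs. With the replicate number as a block 1278 genes were called, with 2 endothelial genes, Tie1 and Kdr (adjusted p = 0.0448 by limma), 3 mural cell genes and medians of -0.20 and -0.23. Cdh5 then had an adjusted p of 0.0628.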
